A study of Rattus norvegicus with 23 samples.

Results

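The comparison described here asks how the differentiation response of CG4 cells, an immortalized rat oligodendrocyte progenitor line, differed from that of primary rat oligodendroglia. For each gene it takes the change from proliferating wild-type CG4 cells to CG4 cells that carried a GFP-only vector and were differentiated for 3 days, minus the change from proliferating to 3-day differentiated primary cells. It used 15 of the 23 libraries of the series and the raw counts of the 15219 genes listed for every library. Of 13207 genes with enough reads to test, 286 were set aside because their mean in proliferating CG4 lay more than 8-fold outside the range of the other 3 groups, which left 12921. Genes that rose in one system and fell in the other are the main subject: 2616 genes met that description, 1418 higher in differentiating CG4 and lower in differentiating primary cells, and 1198 the reverse.

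The proliferating CG4 group held 3 libraries of wild-type cells kept in basal medium with bFGF and PDGF-AA. The differentiating CG4 group held 4 libraries of cells given the empty control vector pCAG-IRES-EGFP and moved to SATO medium with high T3/T4 and CNTF. The 4 proliferating and 4 differentiating primary libraries came from wild-type oligodendroglia of rat brain, taken by shake-off from mixed glial cultures and kept in the same 2 media without a vector. All 4 groups are total RNA of bulk cultures, so fewer cells of a type and less RNA per cell cannot be told apart in any of these values.

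Oligodendrocyte progenitors divide under PDGF and FGF, and they leave the cell cycle and build myelin when these mitogens are withdrawn and thyroid hormone is supplied. Olig1, Olig2, Sox10 and Nkx2-2 are transcription factors of the lineage, and Myrf and Zfp488 are induced during differentiation. CNTF signals through a receptor complex that contains gp130 and activates STAT3, which also drives astrocyte genes such as Gfap.

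Total counts were 32454992 to 42318101 per library in proliferating CG4, 39268564 to 49206479 in differentiating CG4, 20063345 to 33130502 in proliferating primary cells and 22624183 to 36301186 in differentiating primary cells. The differentiating CG4 totals also cover genes not listed for the other groups. Over the 15219 genes used they were 35803989 to 44270952. Besides lacking the vector, the proliferating CG4 libraries were read at 100 bases and the others at 150, so vector, read length and state cannot be told apart within the CG4 response. Some genes of these 3 libraries held counts out of keeping with all others: Gapdh averaged 0.171 CPM there (counts scaled to a common library total) and 1150 to 2390 in the other groups, and Tpi1 averaged 661 CPM there and 0.221 to 0.884 elsewhere. Of the 286 genes set aside, 187 stood above the other groups' range and 99 below it. The limit cannot set aside a gene for being too low in proliferating CG4 when the lowest mean of its other groups lies under 8 CPM. Just outside the limit were Chl1 at 8.04-fold and Phldb2 at 8.06-fold, and just inside it Ntrk3 at 7.99-fold and Trim67 at 7.92-fold. The 4 differentiating primary libraries formed 2 close pairs, 1 with 2 and 3 with 4: the chi-square of their counts per degree of freedom was 8.45 and 1.77 within the pairs and 29.3 to 37.1 between them. No label explains these pairs. The same measure was 2.15 to 4.48 between proliferating primary libraries, 22.8 to 159 between differentiating CG4 and 153 to 265 between proliferating CG4 libraries. Libraries of both CG4 groups thus differed more among themselves than most primary libraries did.

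Summed markers of the labelled cells were present in all groups. The 29 progenitor genes described summed to 7940 to 11300 CPM in proliferating CG4 and 5860 to 6940 in differentiating CG4. In primary cells they summed to 4020 to 4250 while proliferating and 7720 to 8060 while differentiating. Cspg4, a progenitor marker, averaged only 2.66 and 1.61 CPM in proliferating and differentiating CG4, against 95.4 and 103 in primary cells. The 26 myelin genes described summed to 2360 to 3930 CPM in proliferating CG4 libraries, 15400 to 24800 in differentiating CG4, 2180 to 2280 in proliferating primary and 109000 to 125000 in differentiating primary libraries. Of 22 microglia and macrophage markers, 9 could be matched by symbol, and they summed to 1510 to 1580 CPM in proliferating primary cells, 98.2 to 121 in differentiating primary cells, 41.8 to 91.9 in proliferating CG4 and 87.2 to 107 in differentiating CG4. Of these, Csf1r averaged 350 CPM in proliferating primary cells and 0.0626 in proliferating CG4.

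Values below are CPM after TMM scaling, given as mean ± SD (n = 3 for proliferating CG4, n = 4 for each other group), and changes are log2 fold changes ± SE from edgeR's quasi-likelihood fit over the 15 libraries, with Benjamini-Hochberg adjusted p-values over all genes tested. A gene was called where the adjusted p was below 0.05. The difference between the responses was higher in CG4 for 4368 genes (33.8% of those described) and lower in CG4 for 4529 (35.1%), together 8897 genes (68.9%). Differentiating CG4 exceeded proliferating CG4 for 4789 genes (37.1%) and fell below it for 4741 (36.7%); in primary cells 4349 genes rose (33.7%) and 4914 fell (38.0%). Of 6908 genes called in both systems (53.5%), 4292 moved the same way (2084 up, 16.1%, and 2208 down, 17.1%) and 2616 moved in opposite directions, which is 37.9%. Across the 12921 genes the 2 responses correlated weakly (Pearson r = 0.156, Spearman rho = 0.159), a description over genes that share 15 libraries.

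**Figure D1:**
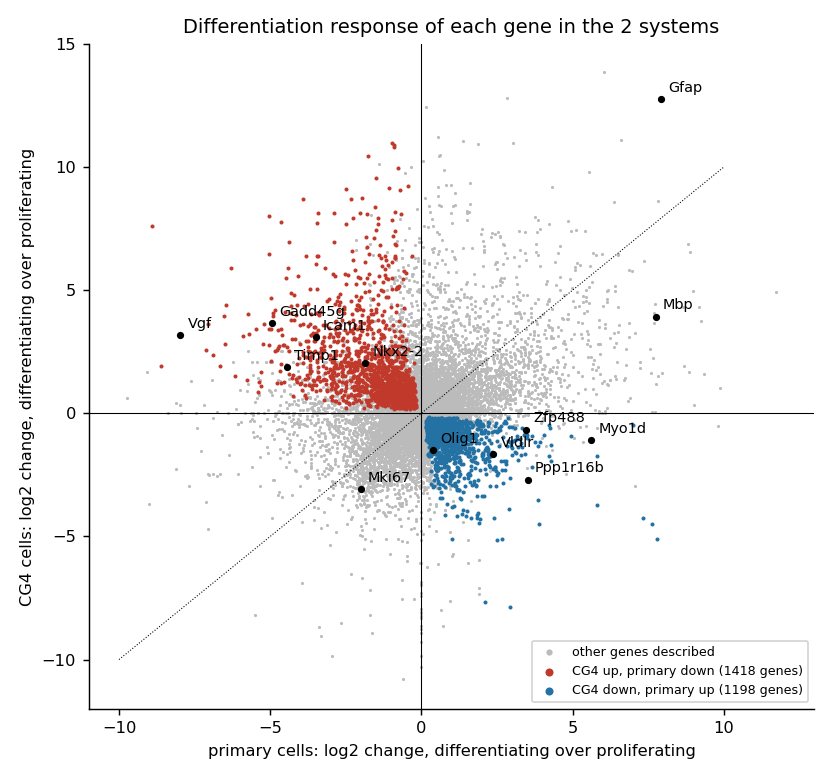
Each point is 1 of the 12921 genes described, placed by its log2 change with differentiation in primary cells (horizontal) and in CG4 cells (vertical); the dotted line marks equal change. Red points are the 1418 genes that rose in CG4 and fell in primary cells, blue points the 1198 that did the reverse, and named genes are marked in black.

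Genes up in CG4 and down in primary cells made up 11.0% of the genes described, with a median change of 1.39 in CG4 and -1.30 in primary cells. Genes down in CG4 and up in primary cells made up 9.27%, with medians of -0.85 and 0.76. Changes of at least 1 on the log2 scale in both systems were reached by 699 genes of the first class and 251 of the second. Because the classes were chosen by these very tests, their values are given below as a description. The mean of proliferating CG4 lay within the range of the other 3 groups for 668 of the 1418 and 558 of the 1198, and outside it for the rest. The 8-fold limit holds for these only after means below 1 CPM are raised to 1 CPM. Without that floor some lay further out: C2 averaged 0.0602 CPM in proliferating CG4 and 2.14 in its lowest other group. A further 8 CG4 libraries, 4 transfected with Zfp488 and 4 with Nkx2.2 and differentiated in the same medium, had no part in the choice. All 8 stood above all 3 proliferating CG4 libraries for 941 of the 1418 genes (66.4%, against 27.4% of all genes described), and all 8 stood below them for 834 of the 1198 (69.6%, against 28.5%). They are set against the same 3 proliferating libraries as the GFP-only cells, so any feature of those 3 libraries is shared by both. The genes were also chosen for their change from these 3 libraries. Shares above those of all genes were therefore partly fixed by the choice and are no separate support for it.

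Among the lineage transcription factors, Olig1, Olig2, Zfp488 and Zfp24 fell in differentiating CG4 and rose in differentiating primary cells, while Nkx2-2 and Sox9 did the reverse. Of 21 genes in this list, 2 were therefore up in CG4 and down in primary cells, against 11.0% of all genes described, and 4 the reverse, against 9.27%. A further 6 rose in both systems, against 16.1% of all genes described, among them Sox10, Myrf and Tcf7l2, which rose by less in CG4. Olig1, a basic helix-loop-helix factor required for myelin repair, stood at 1040, 1450 and 1160 CPM in proliferating CG4 and at 377, 394, 493 and 477 in differentiating CG4. In primary cells it stood at 1540, 1380, 1550 and 1540 CPM while proliferating and 2050, 1810, 1970 and 1890 while differentiating. The groups did not overlap in either system, and the difference between the responses was -1.84 ± 0.17 (adjusted p = 1.69e-07). Its neighbour Olig2, which specifies the lineage, moved less: 614 ± 130 to 464 ± 67.0 CPM in CG4, where the libraries of the 2 groups overlapped, and 754 ± 25.7 to 1050 ± 72.9 in primary cells, a difference of -0.87 ± 0.18 (adjusted p = 5.53e-04). Without the second proliferating CG4 library the fall of Olig2 in CG4 was -0.25 with an adjusted p of 0.0896, so its place among the opposite genes rests on that library.

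Zfp488, a zinc-finger repressor that promotes oligodendrocyte differentiation, moved further in primary cells. It stood at 65.4, 54.4 and 82.3 CPM in proliferating CG4 and at 34.0, 38.1, 58.5 and 38.6 in differentiating CG4, where 1 library lay inside the proliferating range. In primary cells it went from 16, 16.8, 16.3 and 16 CPM to 177, 184, 179 and 175. Its rise in primary cells was 3.46 ± 0.16, its fall in CG4 -0.66 ± 0.16, and the difference -4.12 ± 0.22 (adjusted p = 9.05e-10). Zfp24, a zinc-finger protein required for myelination, fell from 92.7 ± 31.3 to 25.6 ± 2.00 CPM in CG4 and rose from 74.9 ± 3.66 to 115 ± 4.34 in primary cells.

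The promoter of Zfp488 is shown because of that gap. It covers 250 bases before the RefSeq start (build GRCr8, chr16:9299929-9300178, minus strand), and capitals mark a match to TGANTCA, the consensus of AP-1 factors.
Zfp488: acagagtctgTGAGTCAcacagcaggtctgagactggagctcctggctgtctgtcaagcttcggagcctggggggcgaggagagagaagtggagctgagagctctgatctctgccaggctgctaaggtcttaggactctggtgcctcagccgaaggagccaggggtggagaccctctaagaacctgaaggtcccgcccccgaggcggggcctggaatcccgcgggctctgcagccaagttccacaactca
The match began 240 bases before the start. Such a match is a description of the letters and not of a bound site.

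Nkx2-2, a homeodomain repressor of the progenitor and early differentiation stages, went the other way. Proliferating CG4 libraries held 31.2, 98.4 and 69.6 CPM and differentiating ones 303, 301, 210 and 270. Proliferating primary libraries held 237, 225, 246 and 240 CPM and differentiating ones 44.5, 38.3, 92.1 and 85.9. The range of differentiating CG4 thus overlapped that of proliferating primary cells, and the range of proliferating CG4 that of differentiating primary cells. The difference between the responses was 3.90 ± 0.48 (adjusted p = 4.34e-06). Among the differentiating primary libraries the first pair was lower than the second. Sox9, which marks neural progenitors and astrocytes, rose from 3.17 ± 2.33 to 12.6 ± 2.83 CPM in CG4 and fell from 109 ± 5.94 to 35.0 ± 13.2 in primary cells.

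Sox10, the factor that holds the lineage throughout, rose in both systems, from 865 ± 238 to 1730 ± 58.6 CPM in CG4 and from 548 ± 27.7 to 1980 ± 138 in primary cells. Myrf, the activator of myelin genes, rose from 241 ± 105 to 697 ± 70.6 CPM in CG4 and from 187 ± 7.52 to 2500 ± 218 in primary cells, a difference of -2.2 ± 0.30 (adjusted p = 1.25e-05). Tcf7l2, a Wnt effector of the differentiating stage, rose in both and by less in CG4 (-1.74 ± 0.22, adjusted p = 4.84e-06).

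**Figure D2:**
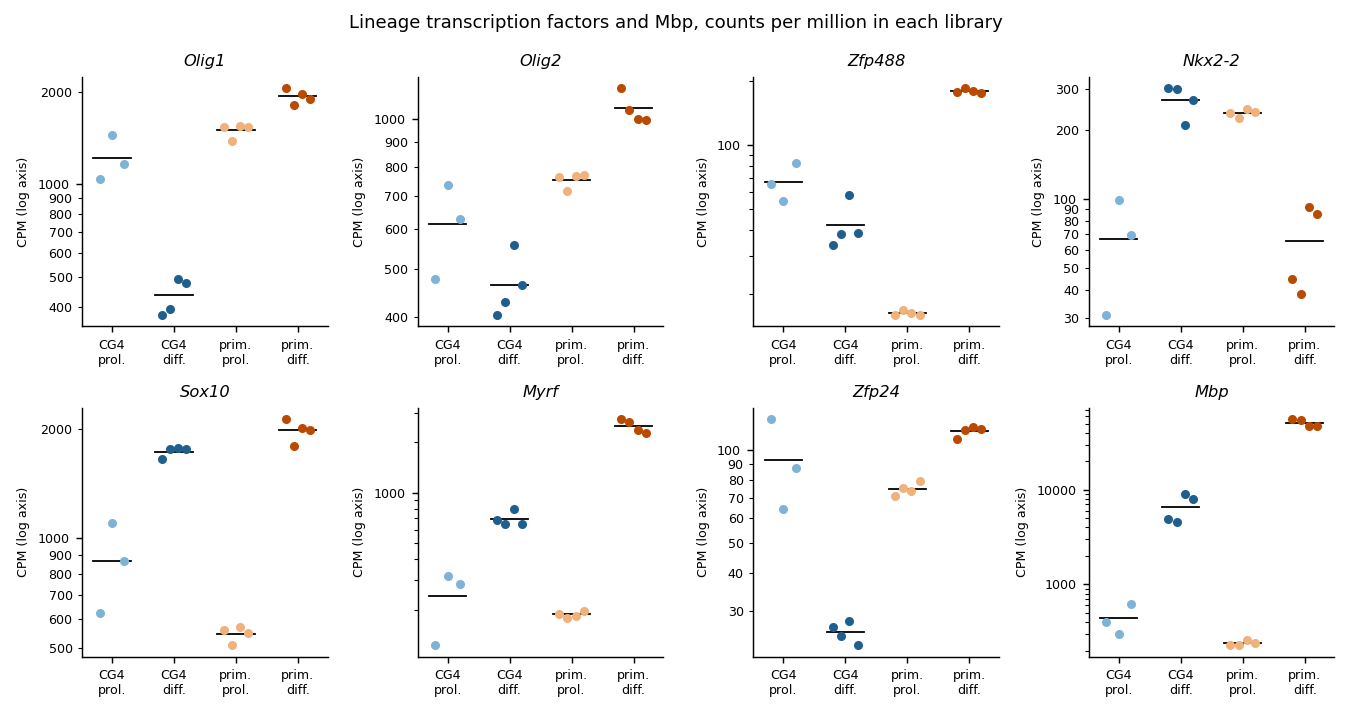
CPM in each library (points, log axis) and group means (lines) for 7 lineage transcription factors and Mbp; prol., proliferating; diff., differentiating; prim., primary. Olig1, Olig2, Zfp488 and Zfp24 are lower in differentiating than in proliferating CG4 means and higher in differentiating primary means, Nkx2-2 shows the reverse, and Sox10, Myrf and Mbp are higher with differentiation in both systems.

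Myelin genes moved together in direction and apart in size. Of 26 described, 21 rose in both systems, 17 had a smaller change in CG4, none a larger one, and the median change was 2.30 in CG4 and 4.25 in primary cells. Over all genes described these 3 shares were 16.1%, 35.1% and 33.8%. A further 3 genes of the list were set aside. Mog, a myelin gene that was set aside, had the larger change in CG4, 5.73 against 4.12 in primary cells (difference 1.61 ± 0.39, adjusted p = 0.00187). Mbp, which compacts the myelin membrane, stood at 399, 301 and 619 CPM in proliferating CG4 and 4940, 4620, 9020 and 8040 in differentiating CG4. In primary cells it went from 231, 227, 257 and 239 CPM to 55600, 54500, 47400 and 47800. Its difference was -3.82 ± 0.34 (adjusted p = 1.62e-07). Mobp, another protein of compact myelin, differed by -4.01 ± 0.40 (adjusted p = 5.84e-07). Mag, a glycoprotein of the membrane next to the axon, did not pass the test (-1.17 ± 0.65, adjusted p = 0.123), although without the first proliferating CG4 library it did (-1.66, adjusted p = 0.00594). A single gene of the myelin list was opposite. Evi2a, a transmembrane protein, went from 24.4 ± 1.57 to 5.12 ± 0.713 CPM in CG4 and from 54.6 ± 2.35 to 85.7 ± 7.50 in primary cells. It lies within an intron of Nf1, and no source gives the strand setting of the counts, so its reads and those of Nf1 may not be told apart.

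Of 16 genes of committed and premyelinating oligodendrocytes, 14 rose in both systems, and the difference was lower in CG4 for 11, Itpr2 among them. Over all genes described these shares were 16.1% and 35.1%. The 2 opposite members were Nkx2-2 and Itpr2, an intracellular calcium channel that marks newly committed cells. Itpr2 fell from 242 ± 50.3 to 134 ± 28 CPM in CG4 and rose from 41.0 ± 2.2 to 443 ± 67.5 in primary cells. Of 29 progenitor genes, 21 had a lower change in CG4 and 2 a higher one, against 35.1% and 33.8% of all genes described. Their medians were -0.46 in CG4 and 0.32 in primary cells. Pdgfra, the receptor for the withdrawn mitogen, fell in both, from 1540 to 390 CPM in CG4 and from 548 to 357 in primary cells. Ncan, Cspg5 and Ednrb fell in CG4 and rose in primary cells; Ncan, a proteoglycan of the matrix, went from 640 ± 170 to 404 ± 54.7 CPM in CG4 and from 358 ± 18.3 to 1290 ± 148 in primary cells. Tmem100 and S100a4 did the reverse. These 3 and 2 of 29 genes stand against 9.27% and 11.0% of all genes described. The count of progenitor genes down in CG4 and up in primary cells, 3, was 5 without the second proliferating CG4 library and 1 without the first differentiating primary library or without the first pair.

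Cell cycle genes fell in both systems. Of 35 cell cycle genes, 34 did so, with medians of -2.52 in CG4 and -1.92 in primary cells, and of 30 DNA replication genes 28 fell in both. Over all genes described 17.1% fell in both. Mki67, a marker of dividing cells, fell from 679 ± 74.5 to 79.3 ± 6.62 CPM in CG4 and from 367 ± 17.1 to 91.4 ± 5.54 in primary cells. The exceptions were Ccnd3, a G1 cyclin, Gins2, a subunit of the replicative helicase, and Fen1, a nuclease of lagging-strand synthesis. Ccnd3 stood at 123, 150 and 77.7 CPM in proliferating CG4 and 202, 198, 154 and 227 in differentiating CG4, and went from 133 ± 4.45 to 42.2 ± 3.28 in primary cells. Gins2 went from 17.6 to 34.5 CPM in CG4 and from 54.0 to 25.5 in primary cells. Fen1 fell from 91.1 to 30.2 CPM in CG4 and stood at 82.3 and 72.4 in primary cells (adjusted p = 0.0997).

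A list of cycle inhibitors, growth arrest genes and p53 targets held 6 opposite genes of 21. Each was up in CG4 and down in primary cells (11.0% of all genes described were), among them Cdkn2a, Cdkn2b, Gadd45g, Aen and Bax. Of the 6, 1 had its proliferating CG4 mean within the range of the other groups. Cdkn2a, which encodes the inhibitors p16 and p19Arf, went from 89.5 ± 31.5 to 224 ± 25.8 CPM in CG4 and from 42.8 ± 2.71 to 20.7 ± 5.31 in primary cells. Gadd45g, a stress-induced growth inhibitor, had the widest gap of the 6: 2.75 ± 1.30 to 34.8 ± 13.3 CPM in CG4 and 163 ± 3.15 to 5.23 ± 1.73 in primary cells. Cdkn1b, which encodes p27, passed the test in neither system, and Cdkn1c, which encodes p57, rose in both, from 79.1 to 3020 CPM in CG4 and from 33.9 to 302 in primary cells.

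Of 19 feedback genes of the ERK pathway, 10 fell in both systems, among them Spry4, Etv4 and Etv5, which fell further in CG4, and 5 rose in CG4 and fell in primary cells (Myc, Spry1, Ier3, Egr3 and Fosl1). Over all genes described these shares were 17.1% and 11.0%. The change was higher in CG4 for 12 of the 19 and lower for 3, against 33.8% and 35.1% of all genes described. Their medians were -0.85 in CG4 and -2.28 in primary cells, so the list as a whole fell less in CG4. Spry4, a feedback inhibitor of receptor tyrosine kinases, fell from 127 to 5.51 CPM in CG4 and from 332 to 37.8 in primary cells. Myc, a growth-promoting transcription factor, stood at 408, 149 and 332 CPM in proliferating CG4 and 536, 588, 512 and 648 in differentiating CG4, whereas it went from 133 ± 6.48 to 28.6 ± 1.65 in primary cells. Spry1, of the same family as Spry4, rose from 20.9 ± 7.33 to 53.8 ± 17.1 CPM in CG4 and fell from 65.0 ± 4.66 to 12.5 ± 1.24 in primary cells.

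Immediate early genes, which respond to stimulation within minutes, had a higher change in CG4 for 15 of 18, against 33.8% of all genes described. Their medians were 1.66 in CG4 and -1.84 in primary cells, against 0.03 and -0.07 over all genes described. Opposite changes, each up in CG4 and down in primary cells, were found for 7, against 11.0% of all genes described. They were Ier5, Fosb, Jund, Egr3, Egr4, Klf4 and Zfp36, and 1 of the 7 had its proliferating CG4 mean within the range of the other groups. Ier5, a regulator of the heat shock response, stood at 13.2, 13.1 and 10.2 CPM in proliferating CG4 and 50.3, 49.2, 48.7 and 44.8 in differentiating CG4. Its primary values went from 132, 123, 136 and 133 CPM to 37.3, 33.7, 36.3 and 35.6, and the groups were far apart in both systems. Jund, an AP-1 subunit, went from 61.1 ± 18.1 to 239 ± 22.3 CPM in CG4 and from 375 ± 15.7 to 243 ± 22.4 in primary cells, so the differentiating means lay close together. Fos rose in both, by 3.92 ± 0.53 on the log2 scale in CG4 and 1.91 ± 0.44 in primary cells (adjusted p = 9.33e-06 and 0.00117), and Egr1 passed neither test.

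CNTF was present in the differentiation medium of both systems. Of 21 genes of its STAT3 response, the change was higher in CG4 for 15, against 33.8% of all genes described, and lower for 4, with medians of 0.90 in CG4 and -1.28 in primary cells. Those up in CG4 and down in primary cells were 9, against 11.0% of all genes described (Icam1, Timp1, Socs1, Fgl2, Il6r, Tnfrsf1a, Bcl3, Cntfr and Cebpb). Proliferating CG4 lay within the range of the other groups for 4 of them. The only one to do the reverse was Il6st, which encodes gp130, the signalling subunit of the CNTF receptor. Il6st stood at 181, 139 and 176 CPM in proliferating CG4 and 138, 99.7, 67.5 and 70.5 in differentiating CG4, and it rose from 61.4, 65.3, 61.2 and 65.8 CPM to 143, 159, 121 and 122 in primary cells. Cntfr, the ligand-binding subunit, went the other way, from 23.2 ± 8.72 to 52.6 ± 5.42 CPM in CG4 and from 25.8 ± 1.99 to 16.4 ± 2.39 in primary cells. Lifr, the third subunit, rose in primary cells from 5.34 to 21.2 CPM and stood at 26.2 and 19.6 in proliferating and differentiating CG4 (adjusted p = 0.107). The count of reverse members, 1, was 3 without the second proliferating CG4 library and 2 without the third differentiating CG4 library.

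Icam1, an adhesion molecule for leukocytes, stood at 3.93, 3.87 and 4.14 CPM in proliferating CG4 and 42.1, 37.2, 25.4 and 29.8 in differentiating CG4. In primary cells it went from 21.8, 21.1, 19.9 and 22.2 CPM to 2.07, 2.34, 1.27 and 1.77. Timp1, an inhibitor of matrix proteases, went from 28.1, 13.4 and 15.2 CPM to 93.2, 80.7, 44.9 and 60.7 in CG4 and from 72.7, 71.9, 73.9 and 70.4 to 3.32, 3.66, 2.97 and 3.33 in primary cells. Neither gene's groups overlapped in either system. Microglia also express several genes of this list, and the summed microglia markers fell from between 1510 and 1580 to between 98.2 and 121 CPM in primary cells over the same interval; their part in the primary response was not tested. Gfap, the filament of astrocytes, rose in both, to 1310 ± 975 CPM in CG4 and 1050 ± 473 in primary cells, from 0.175 and 4.31. The 15 astrocyte markers summed to 555 to 888 CPM in proliferating and 3160 to 4990 in differentiating CG4, and to 618 to 670 and 3610 to 4970 in primary cells.

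The promoter of Icam1 is shown for a match to TTCNNNGAA, the spacing that STAT3 prefers, in capitals, 107 bases before the RefSeq start (GRCr8, chr8:27829595-27829844, plus strand).
Icam1: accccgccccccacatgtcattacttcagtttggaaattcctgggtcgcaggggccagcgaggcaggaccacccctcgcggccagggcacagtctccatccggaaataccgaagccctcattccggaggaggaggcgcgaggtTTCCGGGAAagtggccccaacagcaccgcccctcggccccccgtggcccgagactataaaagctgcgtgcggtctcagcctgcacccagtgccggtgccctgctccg
Over the class the letters were no more frequent: TTCNNNGAA occurred on either strand in 5.61% of the 909 promoters matched for genes up in CG4 and down in primary cells, 4.67% of the 835 for the reverse class, and 6.39% of the 8739 for all genes described, each 300 bases long.

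Interferon response and antigen presentation genes had a higher change in CG4 for 17 of 22, against 33.8% of all genes described, and a lower one for 1. Their medians were 1.42 in CG4 and -1.24 in primary cells. Up in CG4 and down in primary cells were 9 of them (Tap1, Psmb8, Psmb9, B2m, Mx1, Ifi27, Irf7, Irf9 and Bst2), against 11.0% of all genes described, and none did the reverse. Proliferating CG4 lay within the range of the other groups for 3 of the 9. Tap1, which carries peptides to class I molecules, stood at 10.5, 8.36 and 11.8 CPM in proliferating CG4 and 28.9, 30.7, 37.2 and 39.0 in differentiating CG4. It went from 27.6, 24.4, 24.9 and 25.9 CPM to 10.2, 8.90, 6.93 and 7.16 in primary cells. B2m, the light chain of class I, went from 79.2 ± 28.2 to 204 ± 23.6 CPM in CG4 and from 258 ± 6.11 to 86.9 ± 16 in primary cells. Irf9, the DNA-binding subunit of the interferon-activated complex, rose from 7.21 ± 0.675 to 29.3 ± 1.47 CPM in CG4, but its fall in primary cells, 13.1 ± 1.06 to 11.1 ± 0.176, kept its call in 13 of 22 other fits. Irf7 had no read in proliferating CG4 and averaged 0.905 CPM in differentiating CG4, 3.37 in proliferating and 0.713 in differentiating primary cells. Microglia also express these genes, and their summed markers fell in primary cells over the same interval; the part of that in the primary response was not tested.

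Tap1 and Psmb9 are shown because these 2 opposite genes lie head to head, and their windows overlap (GRCr8; Tap1 chr20:4668544-4668793, minus strand; Psmb9 chr20:4668750-4668999, plus strand). Psmb9, a subunit of the immunoproteasome, went from 5.31 ± 1.81 to 16.3 ± 4.13 CPM in CG4 and from 10.5 ± 0.567 to 2.77 ± 0.574 in primary cells. Psmb8 (chr20:4657032-4657281, minus strand), another such subunit, went from 0.298 to 2.82 and from 5.41 to 0.777 CPM. Capitals mark matches to TTCNNNGAA, to TTCNNGAA, which lacks 1 spacer base, and to CCAAT on either strand.
Tap1: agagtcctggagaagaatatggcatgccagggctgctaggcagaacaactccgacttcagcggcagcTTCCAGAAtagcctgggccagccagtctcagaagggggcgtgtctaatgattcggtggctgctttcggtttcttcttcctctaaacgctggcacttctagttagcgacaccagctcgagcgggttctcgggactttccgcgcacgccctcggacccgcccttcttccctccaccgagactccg
Psmb9: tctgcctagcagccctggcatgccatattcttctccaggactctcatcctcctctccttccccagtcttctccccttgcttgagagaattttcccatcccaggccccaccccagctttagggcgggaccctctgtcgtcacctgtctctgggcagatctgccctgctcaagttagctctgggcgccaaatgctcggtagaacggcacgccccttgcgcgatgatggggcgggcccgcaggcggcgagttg
Psmb8: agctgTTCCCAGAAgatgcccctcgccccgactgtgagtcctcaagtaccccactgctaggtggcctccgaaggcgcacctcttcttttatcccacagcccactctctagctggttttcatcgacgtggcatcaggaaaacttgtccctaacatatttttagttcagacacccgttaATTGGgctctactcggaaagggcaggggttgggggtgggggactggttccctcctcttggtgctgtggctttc
TTCNNGAA occurred in 6.27% of the promoters of genes up in CG4 and down in primary cells, 4.91% of the reverse class and 6.59% of all. CCAAT occurred in 34.5%, 36.6% and 37.9%, TGANTCA in 6.27%, 4.91% and 4.77%, and the E-box CACGTG in 11.7%, 8.38% and 9.45%. Median GC content was 62.0%, 62.3% and 61.3%.

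Matrix and integrin genes had a higher change in CG4 for 27 of 45, against 33.8% of all genes described, and a lower one for 6. Their medians were 1.41 in CG4 and -0.72 in primary cells. The opposite genes were 14 up in CG4 and down in primary cells, 3 of them with proliferating CG4 within the range of the other groups, and Lamc1 and Itgb8 did the reverse. Over all genes described these shares were 11.0% and 9.27%. Itga3, a laminin receptor, stood at 3.19, 1.70 and 4.00 CPM in proliferating CG4 and 29.6, 23.1, 10.4 and 16.3 in differentiating CG4, and went from 50.3, 44.8, 53.4 and 49.7 CPM to 1.76, 1.58, 1.93 and 2.32 in primary cells. Itgb5, a vitronectin receptor subunit, went from 17.3 ± 2.92 to 73.9 ± 7.25 CPM in CG4 and from 65.6 ± 3.72 to 30.9 ± 2.29 in primary cells. Col6a1, a chain of collagen VI, went from 0.836 to 23.8 CPM in CG4, with a spread of 7.57 to 41.4 over the differentiating libraries, and from 5.22 to 0.270 in primary cells. Lamc1, a laminin chain, fell from 482 to 281 CPM in CG4 and rose from 105 to 193 in primary cells. Of 9 fibroblast, pericyte and endothelial markers, Col1a1, Col3a1 and Fn1 were up in CG4 and down in primary cells, and Col3a1 had 3 reads in all in proliferating CG4. The rise of Col3a1 in CG4 was lost without the first (adjusted p = 0.0645) or the third (adjusted p = 0.0611) proliferating CG4 library and with thinned counts (adjusted p = 0.0975). The sum over these 9 markers was 231 to 264 CPM in proliferating and 131 to 157 in differentiating primary cells, and 16.9 to 32.4 and 91.1 to 110 in CG4; its part in the matrix values was not tested.

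**Figure D3:**
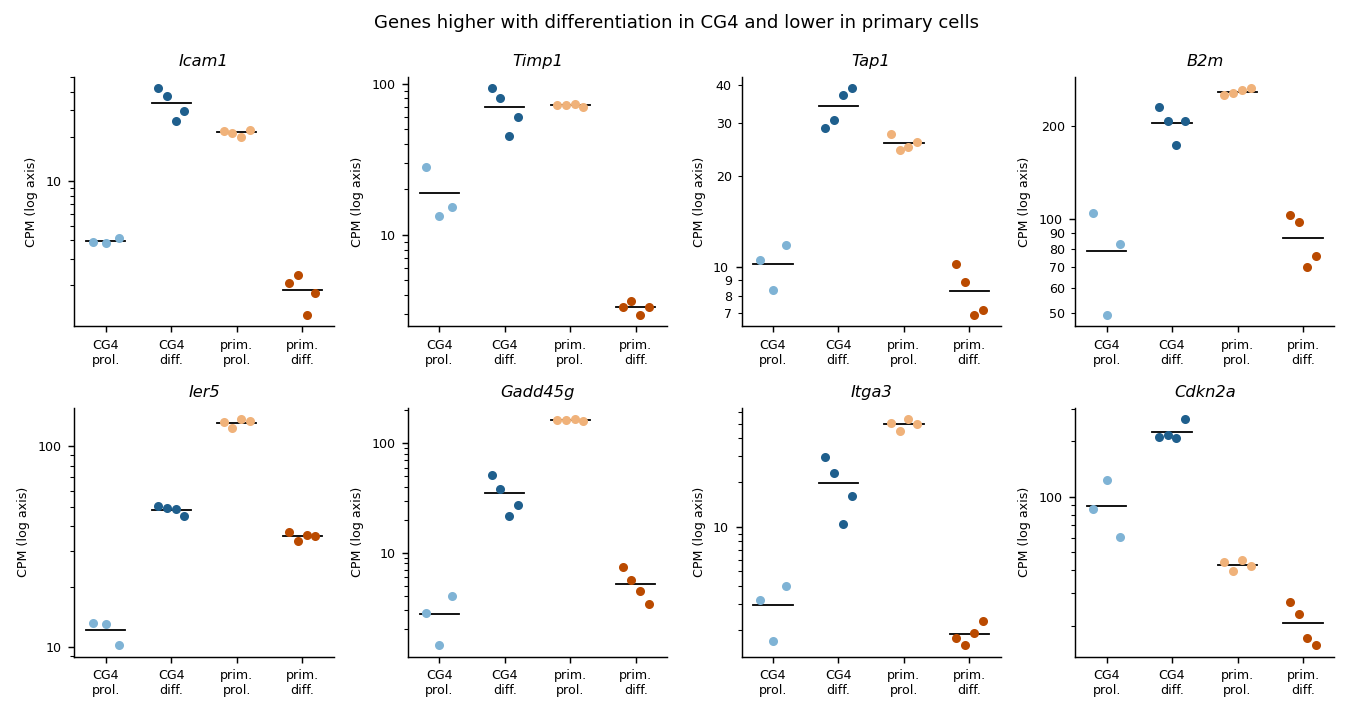
CPM in each library (points, log axis) and group means (lines) for 8 genes that rose with differentiation in CG4 and fell in primary cells; prol., proliferating; diff., differentiating; prim., primary. For each gene, every differentiating CG4 library is above every proliferating one, and every differentiating primary library is below every proliferating one.

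All 9 microglia and macrophage markers had a higher change in CG4, and 7 counted as opposite, against 33.8% and 11.0% of all genes described. All 9 also fell in primary cells. Lyz2 and Csf1r were nearly absent from CG4 and high in proliferating primary cells, so their higher change in CG4 mostly restates that fall. These counts are therefore no support for a microglial response in CG4. Lyz2 stood at 0.0237, 0.217 and 0.287 CPM in proliferating CG4 and 1.24, 1.76, 1.68 and 1.81 in differentiating CG4, against 745, 723, 746 and 757 in proliferating and 20.1, 18.6, 8.15 and 9.23 in differentiating primary cells. Csf1r, the receptor that microglia need to survive, reached 0.249 CPM in differentiating CG4 and fell from 350 ± 9.25 to 14.1 ± 1.89 in primary cells. Several genes of the opposite class with the largest changes had the same form, with at most 2 reads in proliferating CG4: Stab1 averaged 0.382 CPM in differentiating CG4 and 299 in proliferating primary cells, Bin2 0.580 and 35.0, Fcgr2b 0.532 and 22.2, and Ch25h 0.330 and 20.6. For such genes no fold is given for CG4. Of 31 lysosome genes 5 were opposite in the same direction, against 11.0% of all genes described, among them Ctsb, a cathepsin, which went from 224 ± 48.6 to 638 ± 18.7 CPM in CG4 and from 1130 ± 46.5 to 373 ± 33.3 in primary cells. Most of that list went the other way in primary cells, where 19 rose and 6 fell, with a median change of 0.7. In both systems 15 rose. Over all genes described 33.7% rose and 38.0% fell in primary cells, and 16.1% rose in both systems.

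Of 19 glycolysis genes 10 had a higher change in CG4, against 33.8% of all genes described. Hk2, Pkm and Pfkp were opposite, all up in CG4 and down in primary cells, against 11.0%. Without the first proliferating CG4 library 8 were opposite. Pkm, which encodes pyruvate kinase, stood at 1720, 849 and 994 CPM in proliferating CG4 and 3000, 3260, 2580 and 2860 in differentiating CG4, and went from 762 ± 36.3 to 375 ± 44.8 in primary cells. Vegfa, an angiogenic factor induced by low oxygen, stood at 316, 53.4 and 58.0 CPM in proliferating CG4, where 1 library was far above the others, and 445, 766, 1230 and 647 in differentiating CG4, and went from 88.3 ± 3.89 to 40.5 ± 3.19 in primary cells. Fgfr1, a receptor of bFGF, went from 157 ± 37.6 to 504 ± 144 CPM in CG4 and from 529 ± 18.9 to 318 ± 62.4 in primary cells. Vgf, a neuropeptide precursor, stood at 10.5, 9.54 and 6.32 CPM in proliferating and 120, 123, 19.9 and 51.2 in differentiating CG4, and went from 686 ± 32.7 to 2.68 ± 0.956 in primary cells, a difference between the responses of 11.14 ± 0.77. Dlk1, an imprinted Notch-related ligand, went from 5.59 ± 4.91 to 39.1 ± 19.9 CPM in CG4 and from 408 ± 25.9 to 12.3 ± 3.59 in primary cells. Prkcd, a protein kinase C, went from 0.563 to 11.0 CPM in CG4 and from 44.8 to 2.23 in primary cells, and Ier5l, a paralog of Ier5, from 2.79 to 56.5 and from 167 to 9.50.

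**Figure D4:**
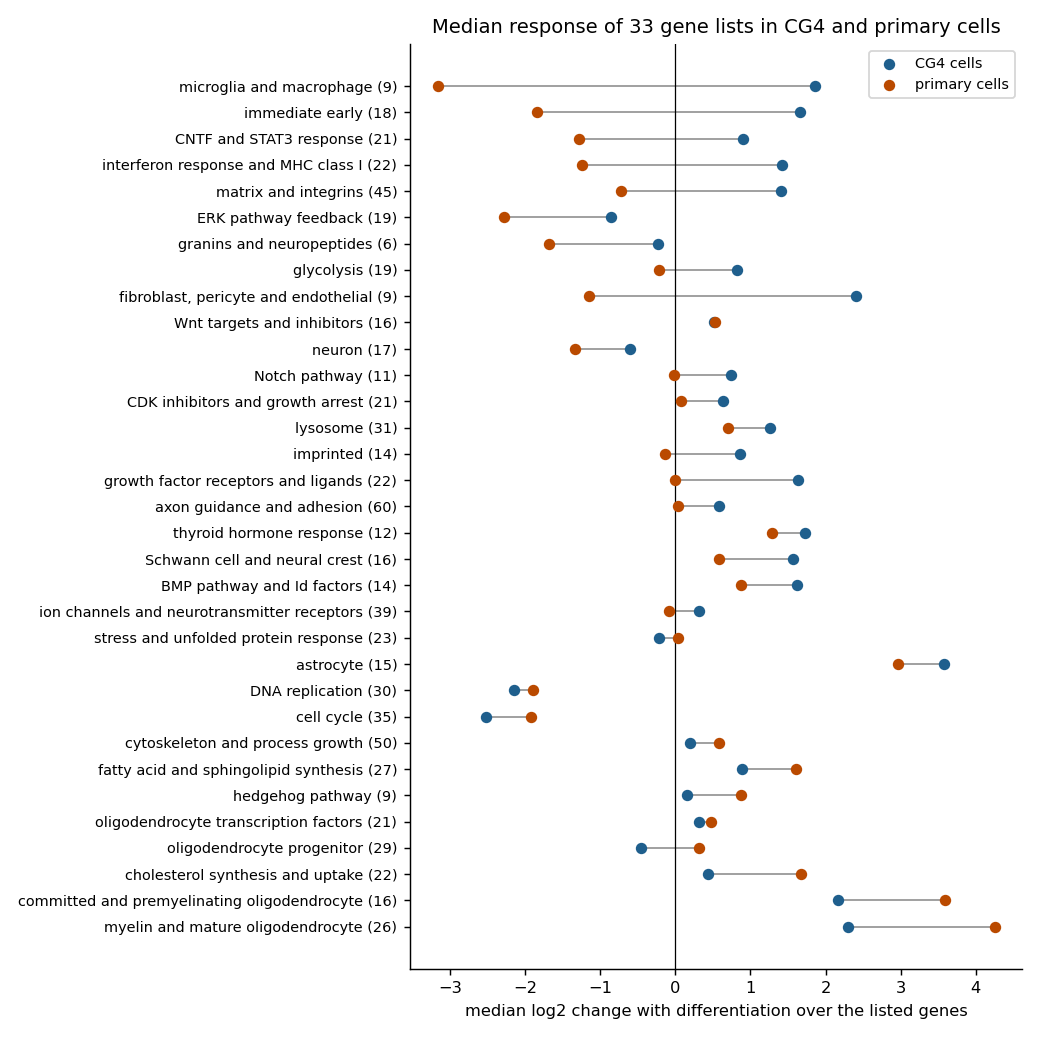
Median log2 change with differentiation in CG4 (blue) and in primary cells (orange) for each gene list, with the number of genes described in parentheses; lists are ordered by the median difference between the responses. Myelin and cholesterol genes have the larger median in primary cells, and the microglia, immediate early, CNTF and STAT3, interferon and matrix lists have medians above 0 in CG4 and below 0 in primary cells. The list labelled CDK inhibitors and growth arrest includes p53 targets.

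Of 22 genes of cholesterol synthesis and uptake, 18 had a lower change in CG4, 2 a higher one, and 11 rose in both systems. Over all genes described these shares were 35.1%, 33.8% and 16.1%. The median change was 0.44 in CG4 and 1.67 in primary cells. Acat2, Stard4, Lss and Ebp fell in CG4 and rose in primary cells, 4 of 22 genes against 9.27% of all genes described. Acat2, which joins 2 acetyl-CoA molecules at the start of the pathway, stood at 394, 379 and 404 CPM in proliferating CG4 and 99.1, 108, 123 and 104 in differentiating CG4. Its primary values went from 172, 177, 170 and 171 CPM to 414, 427, 294 and 303. Stard4, a carrier of cholesterol between membranes, went from 94.3 ± 25.2 to 28.1 ± 5.73 CPM in CG4 and from 48.9 ± 2.51 to 106 ± 12.1 in primary cells. The fall of Lss in CG4 was lost without the third proliferating CG4 library (-0.28, adjusted p = 0.0826). Srebf2, the activator of the pathway, was an exception with a higher change in CG4 (0.72 ± 0.14, adjusted p = 3.96e-04). In the fatty acid and sphingolipid list 16 of 27 had a lower change in CG4, against 35.1% of all genes described. Sptlc2 and Elovl7 were its opposite genes, a share no higher than the 9.27% of all genes; Sptlc2, a subunit of the enzyme that begins sphingolipid synthesis, went from 106 to 40.7 CPM in CG4 and from 40 to 95.0 in primary cells.

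Psat1 and Phgdh, which make serine, and their activator Atf4 also fell in CG4 and rose in primary cells, with Vldlr, a lipoprotein and reelin receptor, in the same list of 23 stress genes. In that list 4 genes did so, against 9.27% of all genes described, and 2 did the reverse, against 11.0%. Psat1 went from 534 to 295 CPM in CG4, where libraries overlapped, and from 120 to 422 in primary cells. Vldlr stood at 246, 245 and 154 CPM in proliferating CG4 and 78.0, 76.9, 69.9 and 49.0 in differentiating CG4, and went from 37.8, 38.6, 38.3 and 41.5 CPM to 211, 226, 191 and 187 in primary cells. Creld2 and Xbp1, of the unfolded protein response, did the reverse; these 2 were 4 without the first proliferating CG4 library and 1 without the first pair of differentiating primary libraries.

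Among 60 axon guidance and adhesion genes 5 fell in CG4 and rose in primary cells, as did 4 of 50 cytoskeleton genes and 1 of 22 growth factor receptors and ligands, against 9.27% of all genes described. In the same 3 lists 7, 4 and 5 genes in turn were up in CG4 and down in primary cells, against 11.0%. Erbb4, a neuregulin receptor, stood at 40, 33 and 61.5 CPM in proliferating CG4 and 11.7, 8.81, 10.3 and 7.35 in differentiating CG4, and went from 17.6, 19.8, 16.2 and 20.3 CPM to 54.6, 65.4, 65.9 and 65.8 in primary cells. Sema6a, a semaphorin, went from 144 ± 23.8 to 70.8 ± 14.4 CPM in CG4 and from 110 ± 7.14 to 1250 ± 222 in primary cells. Cntn1, an adhesion protein of the axon-glia contact, went from 3440 ± 229 to 1030 ± 165 CPM in CG4 and from 488 ± 14.0 to 1500 ± 72.4 in primary cells, so the 2 systems came closer on differentiation. Myo1d, an unconventional myosin, was low in CG4, 16.9 ± 4.20 and 7.82 ± 1.47 CPM, and rose from 6.67 ± 0.330 to 327 ± 44.4 in primary cells. Kif5b, the heavy chain of conventional kinesin, fell from 487 to 168 CPM in CG4 and rose from 266 to 349 in primary cells. Elavl3, an RNA-binding protein of neurons, went from 104 ± 29.2 to 30.9 ± 1.97 CPM and from 142 ± 3.77 to 573 ± 94.2, the only one of 17 neuron markers to do so. Tubb3, Nefl and Slc17a6 did the reverse, and 11 of the 17 fell in primary cells, against 11.0% and 38.0% of all genes described. The 17 markers summed to 610 to 826 and 496 to 856 CPM in CG4 and to 1450 to 1530 and 1230 to 1280 in primary cells.

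Of 9 hedgehog genes, 2 were up in CG4 and down in primary cells and 3 did the reverse, against 11.0% and 9.27% of all genes described. Hhip, which binds and blocks hedgehog ligands, fell from 40.2, 18.2 and 16.9 CPM to 8.45, 6.56, 7.01 and 4.18 in CG4 and rose from 23.5, 25.1, 20.5 and 25.8 to 86.6, 99.6, 134 and 128 in primary cells. Gli3, a repressor of the pathway, moved alike (7.97 to 1.13 and 3.90 to 11.8 CPM), while the transducer Smo did the reverse and went from 9.56 to 19.9 and from 23 to 10.4 CPM. Sufu, another inhibitor of the pathway, fell from 106 to 18.4 CPM in CG4 and went from 38.3 to 53.2 in primary cells, and it kept its class in 12 of 22 other fits. The call for Gli3 in primary cells was lost without the first pair of differentiating libraries (1.42, adjusted p = 0.0678). Of the BMP receptors, Bmpr1a fell from 102 to 66.4 CPM in CG4 and rose from 60.1 to 137 in primary cells. No Notch pathway gene of 11 was opposite. With DESeq2, or when any 1 of the 3 proliferating CG4 libraries was left out, 1 gene was up in CG4 and down in primary cells. Without the second of these libraries that gene was Hes1, a Notch target, and 1 other gene did the reverse.

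The genes with a symbol and the largest changes in both systems within the reverse class included Ppp1r16b, Cxcl12, Grin3a, Pcdh9 and Lcorl. Ppp1r16b, a regulatory subunit of protein phosphatase 1, stood at 215, 745 and 510 CPM in proliferating CG4 and 56.9, 70.8, 119 and 54.0 in differentiating CG4, and went from 91.5, 83.8, 83.4 and 91.4 CPM to 1100, 1070, 928 and 907 in primary cells. Pcdh9, a protocadherin, went from 107 ± 17.8 to 21.9 ± 3.06 CPM in CG4 and from 32.0 ± 0.775 to 172 ± 18.2 in primary cells. Grin3a, an NMDA receptor subunit, went from 32.2 to 2.19 CPM in CG4 and from 1.34 to 10.1 in primary cells. Cxcl12, a chemokine, stood at 9.88 and 0.436 CPM in CG4 and 0.526 and 7.86 in primary cells, where the first pair of differentiating libraries held 3.69 and 3.09 and the second 11.4 and 13.3.

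**Figure D5:**
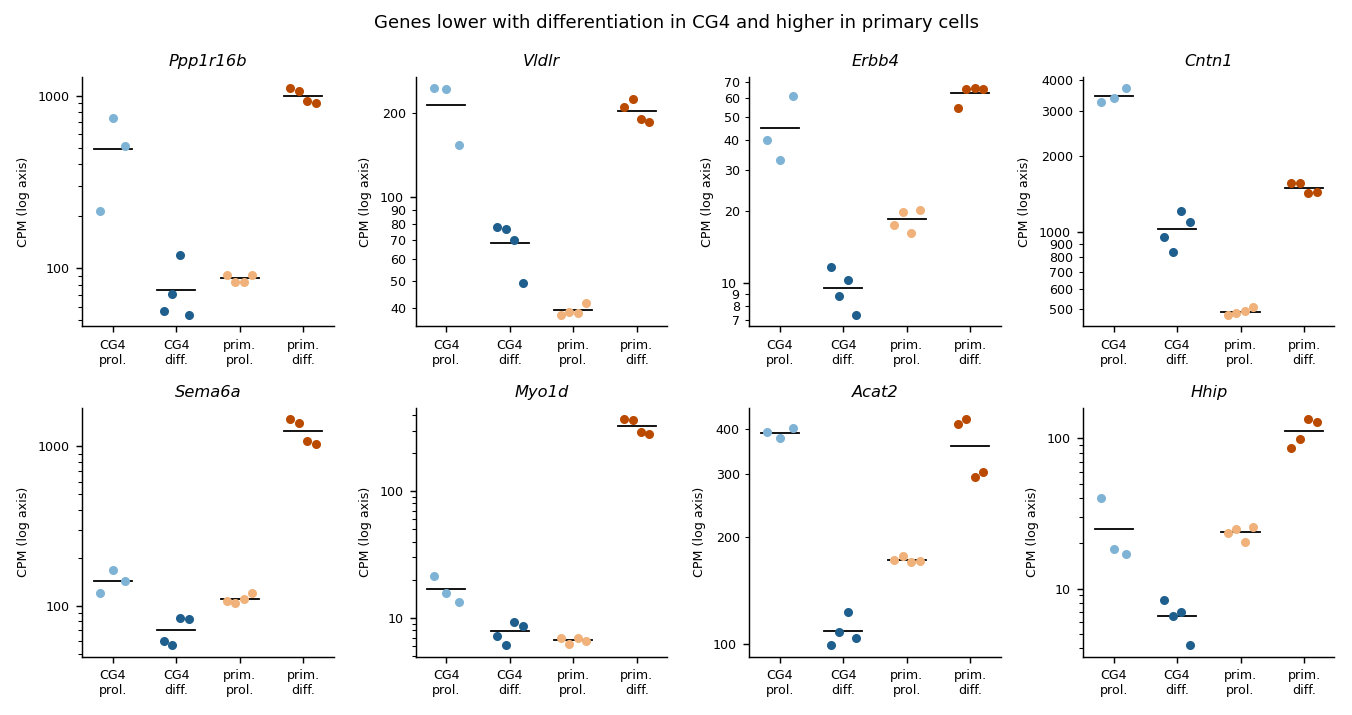
CPM in each library (points, log axis) and group means (lines) for 8 genes that fell with differentiation in CG4 and rose in primary cells; prol., proliferating; diff., differentiating; prim., primary. For each gene the libraries of the 2 states are separate in CG4 and in primary cells.

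Large differences also occurred between genes that moved the same way. Rpe65, a retinoid isomerase, rose from 10.9 to 35.1 CPM in CG4 and from 0.173 to 86.2 in primary cells, and Nipal4, a magnesium transporter, from 1.91 to 6.04 and from 0.321 to 79.6. Adam12, a metalloprotease, fell from 340 to 3.11 CPM in CG4 and from 47.7 to 30.8 in primary cells. In the other direction, Myh6, a myosin of heart muscle, had 2 reads in proliferating CG4 and averaged 151 CPM in differentiating CG4, and it rose from 3.74 to 26.5 in primary cells. Setdb2, Ell3, Pp2d1 and Slc22a12 had no read in proliferating CG4 and averaged 5.33 to 9.11 CPM in differentiating CG4 and 2.56 to 13 in the primary groups. Like Gapdh, these genes and Myh6 lacked nearly all reads in proliferating CG4 alone. The limit could not set them aside, because each had another group mean under 8 CPM. Vector, read length and state cannot be told apart in their CG4 change. Vim, a filament of progenitors and astrocytes, stood at 1330 ± 429 and 1210 ± 450 CPM in CG4 (adjusted p = 0.754) and fell from 3790 ± 98.5 to 277 ± 126 in primary cells.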

How the data were processed

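RNA-seq of rat cells was analysed from raw counts per gene. The authors deposited these counts after trimming with Trimmomatic 0.36, alignment to build rn6 with STAR 2.5.2b and counting with featureCounts of Subread 1.5.2, per the submitters' processing notes. No source used here gives the annotation release, the strand setting or the treatment of multi-mapping reads. The authors' deposited comparison tables hold log2 fold changes, p-values and a signal per library (counts divided by size factors), and they served only to name genes: 12412 of the 15219 common genes had a symbol. Differentiating CG4 files list further genes, with 8.78% to 10.5% of their counts, and these were left out.

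Counts were analysed with edgeR 4.0.16 (filterByExpr, TMM, quasi-likelihood test; R 4.3.3) in 1 fit with 4 group means over 15 libraries. Titles call the libraries biological replicates, and p-values measure only the spread between them. Genes set aside were those with proliferating CG4 over 8-fold outside the other groups, with a floor of 1 CPM. Opposite genes had an adjusted p below 0.05 in both responses and in their difference. The members and the 34 gene lists were chosen with earlier results of these data known. Named genes are a fixed panel, the 15 most changed per opposite class (at least 5 CPM in 1 group), up to 3 opposite or 2 called genes per list, and the 5 widest same-direction differences each way; other list members and Gapdh, Tpi1, Chl1, Phldb2, Ntrk3 and Trim67 were named after their values were seen. Some genes that these rules name are not reported here. No fold is given for groups with at most 3 reads. Alternatives were RLE scaling, no filter, DESeq2 1.42.0, thinned counts, a replicate block, other limits, each library or pair left out, and a fit per system. The fit was tested on simulated counts in which 200 genes differed between the responses by 1 on the log2 scale. It recovered 54% of these, and 10% of its calls were false, a share above the threshold of 0.05. Promoters are from RefSeq (GRCr8), matched by symbol. Scans used 300 bases, 250 before to 50 after the start; 250 are printed.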

Additional observations from a re-analysis of the deposited data

Results flagged for a closer look

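The size of the response differed between the 2 systems, by the test of the difference itself, for 4368 genes with a higher change in CG4 and 4529 with a lower one; the gene groups behind these counts are given in the report. The proliferating CG4 libraries differ from the others in vector and read length, and the part of this in the counts was not tested.

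Within groups of 4 libraries, 396 groups of values were examined for 132 named genes, and in 18 of them (4.55%) 1 library stood apart by Dixon's criterion, where chance alone gives about 1 in 20. The second proliferating primary library was low for Olig1 (1380 CPM, others 1540 to 1550), Olig2 (716), Dlk1 (369) and Mag (30.8), and the first was low for Cdkn1b (126). The fourth proliferating primary library was high for Lamc1 (114). Among differentiating primary libraries the first was low for Erbb4 (54.6, others 65.4 to 65.9) and Itgb8 (45.3) and high for Srebf2 (793), and the second was high for Pcdh9 (199), Prkcd (2.87), Fosl1 (5.05) and Slc17a6 (0.0377, a single read). In differentiating CG4 the fourth library was high for Cdkn2a (263) and Itgb5 (84.7) and low for Itpr2 (92.7), the first was low for Sox10 (1650), and the third was high for Srebf2 (1400).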

How the results depend on the processing

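Over 22 other fits, 879 of the 1418 genes up in CG4 and down in primary cells and 737 of the 1198 of the reverse class kept their class in every fit, and none crossed to the other class. Only 668 and 558 genes remained when proliferating CG4 had to lie within the range of the other groups, an alternative chosen after seeing the data, and 699 and 251 when both changes had to reach 1 on the log2 scale; both require more of a gene by construction. Leaving out each library in turn gave 1277 to 1510 and 1072 to 1332 opposite genes, 4157 to 4562 genes with a higher change in CG4 and 4381 to 4732 with a lower one. A fit for each system alone, which does not test the difference, gave 1167 and 1210 opposite genes, so that the second class became the larger; 1054 and 958 of these were among the 1418 and 1198. RLE scaling moved the median difference by 0.055. Replicate numbers do not pair the samples: deviations of same-numbered libraries correlated at -0.1 to 0.0918 in CG4 and -0.0769 to 0.165 in primary cells, and a replicate block gave 1238 and 1036 opposite genes. No named gene reversed its difference in any fit; Mag, Ccnd1 and Klf9 passed the test only without 1 proliferating CG4 library. The 3 proliferating CG4 libraries limit the CG4 response, and lists with few reads there rest on their low values.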
